A study of Mus musculus with 8 samples.

Results

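U3 is the box C/D small nucleolar RNA (snoRNA) that base-pairs with the precursor of the ribosomal RNAs. The mouse carries it as a small gene family, and all 5 copies named Rnu3a, Rnu3b1, Rnu3b2, Rnu3b3 and Rnu3b4 were found among the 16119 genes of the count table by their Ensembl identifiers in GENCODE vM21. The family was chosen from the HFD against CF values of this same table, so its diet differences are given as a description with no p value, and its counts of calls are read as nothing more than that choice. The RNA came from common DC progenitors (CDPs), the DC-restricted precursors of the bone marrow (BM), of mice labelled C57BL/6, which the study's methods give as C57BL/6J. The HFD group received a diet with 60% of its calories from fat, for 16 weeks by its labels, and the CF group a control diet with 10% from fat. The study's methods describe males and give 16 weeks as their age. Each group had 4 libraries, each made from 50000 sorted cells that were lineage negative, c-Kit intermediate, Sca-1 low, CD115+ and Flt3+. How many mice stood behind a library is not given in the sources used here, so the errors and p values cover only the spread between these libraries. Libraries were made with the NuGEN Ovation Solo kit, which removes rRNA-derived inserts, and were read as pairs of 75 bases.

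Unlike most snoRNAs, which are cut out of introns, U3 is transcribed from its own promoters by RNA polymerase II and receives a trimethylguanosine cap. With the proteins Nop56, Nop58, fibrillarin (Fbl), Snu13 and Rrp9 it forms the U3 snoRNP. This particle organises the small subunit (SSU) processome, in which the precursor is cleaved on the way to 18S rRNA and the small ribosomal subunit.

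The sequences of both kinds of U3 are shown first, because they set what the counts can tell apart. They were taken from the GENCODE vM21 transcripts on GRCm38, and capitals mark bases that differ between Rnu3a and Rnu3b1 or have no partner in the other.
Rnu3a: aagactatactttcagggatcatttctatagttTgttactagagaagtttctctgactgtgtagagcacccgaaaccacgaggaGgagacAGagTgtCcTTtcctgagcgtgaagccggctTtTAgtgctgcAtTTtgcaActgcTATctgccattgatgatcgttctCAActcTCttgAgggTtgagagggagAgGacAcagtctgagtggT
Rnu3b1: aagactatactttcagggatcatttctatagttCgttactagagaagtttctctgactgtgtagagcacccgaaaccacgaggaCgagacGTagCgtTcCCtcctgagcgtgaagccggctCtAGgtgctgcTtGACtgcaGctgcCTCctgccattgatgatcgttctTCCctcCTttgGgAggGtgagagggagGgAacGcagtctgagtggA
The 2 sequences were identical over 184 of 215 aligned columns (85.6%), with 29 mismatches and 2 gap bases. The first 33 bases from the 5′ end were the same in all 5 copies. Rnu3b1, Rnu3b2, Rnu3b3 and Rnu3b4 did not differ at any of their 215 bases.

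Rnu3a (ENSMUSG00000106147) lies on the plus strand of chromosome 10, at chr10:40258467-40258679, where no other annotated gene overlaps it. The 4 Rnu3b copies lie on the plus strand of chromosome 11 in introns of Tex14, a gene on the same strand that is known for its role in germ cells. Rnu3b1 (ENSMUSG00000105025) is at chr11:87443237-87443451 and Rnu3b3 (ENSMUSG00000104856) at chr11:87448627-87448841. Rnu3b4 (ENSMUSG00000098641) is at chr11:87462286-87462500 and Rnu3b2 (ENSMUSG00000098925) at chr11:87471368-87471582. The cluster spans 28131 nt from the first to the last start. The annotation gives each copy 2 identifiers at the same start, 10 in all, of which the count table holds 1 for each copy. Tex14 itself had 19 to 92 counts per library, while no Rnu3b copy had fewer than 5081. The log2 fold change of Tex14, HFD minus CF, was -0.86 ± 0.39 (SE), with overlapping groups (edgeR, adjusted p = 0.60).

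The 3′ part of each kind carries the letters of box C and box D, shown here in capitals. In U3, box C pairs with box B in the motif that Snu13 and Rrp9 bind, while box D pairs with a box C′ further upstream, where the core box C/D proteins assemble. Boxes B and C′ were not searched for.
Rnu3a 3′ stretch: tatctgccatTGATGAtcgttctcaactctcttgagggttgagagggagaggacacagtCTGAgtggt
Rnu3b1 3′ stretch: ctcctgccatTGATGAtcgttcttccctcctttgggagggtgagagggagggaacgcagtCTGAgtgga
The search was for TGATGA and CTGA on the RNA's own strand. TGATGA occurred once, at base 156 of Rnu3a and base 157 of each Rnu3b copy, and the last CTGA began 9 bases from the 3′ end in all 5. Both motifs, the second within the last 30 bases, were also found in 114 of the 306 other snoRNA genes of the table that have a transcript (37.3%).

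The reads were 75 bases long, and each Rnu3b copy holds 141 stretches of that length. All 141 occur in the other 3 copies and none in a gene outside the family. Its second identifier at the same place set aside, the 139 stretches of Rnu3a occur in no other annotated gene. The longest identical run of Rnu3a with the Rnu3b copies is 50 bases. According to the study's methods, uniquely mapped pairs were counted, and how pairs inside identical copies were assigned is not described in the sources used here. The 4 Rnu3b rows were therefore treated as 1 measurement. Their sum can count a pair more than once, whereas Rnu3a stands as a separate measurement of the other kind of U3.

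All 5 copies were detected in every library and were lower in HFD than in CF CDPs. Rnu3a had 172, 214, 195 and 237 CPM, the read count relative to the library size as scaled by TMM, in HFD replicates 1 to 4. In CF replicates 1 to 4 it had 818, 640, 782 and 461. The lowest CF library stood 1.95 times above the highest HFD library, so the groups did not overlap. The means were 204 ± 27.7 CPM (SD, n = 4) in HFD and 675 ± 162 (SD, n = 4) in CF. This is a log2 fold change of -1.72 ± 0.20 (SE) in the edgeR fit, or 3.30 times more in CF.

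Rnu3b1 had 171, 188, 210 and 250 CPM in HFD replicates 1 to 4 and 750, 672, 1037 and 482 in CF replicates 1 to 4. CF replicate 3 was the highest and CF replicate 4 the lowest of its diet, and all HFD libraries lay below both. Its log2 fold change was -1.84 ± 0.24 (SE), from a mean of 205 ± 34.2 CPM (SD, n = 4) in HFD and 735 ± 231 (SD, n = 4) in CF. Rnu3b2, Rnu3b3 and Rnu3b4 gave log2 fold changes of -1.83 each, with HFD libraries between 163 and 237 CPM and CF libraries between 422 and 958 CPM. Since the 4 copies have the same sequence, these values are not separate observations.

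**Figure D1:**
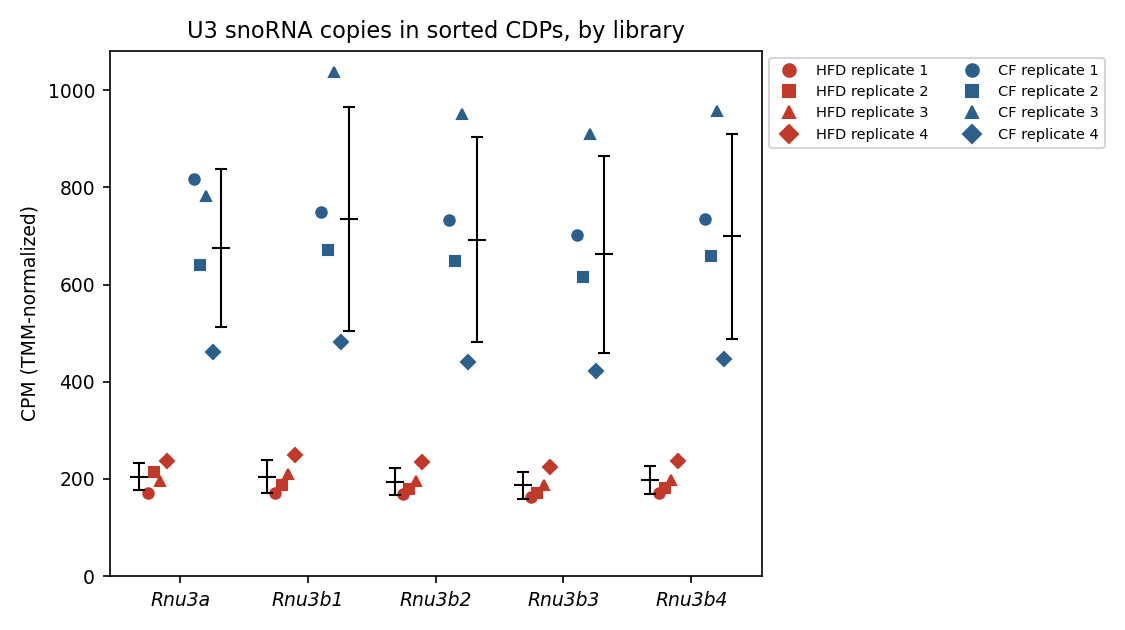
CPM (TMM-normalized, linear axis from 0) of the 5 U3 copies in each of the 8 libraries, with HFD in red, CF in blue and the marker shape giving the replicate. Black bars are the mean and SD of 4 libraries. In each copy the 4 HFD libraries lie below the 4 CF libraries, and CF replicate 4 is the lowest of its diet.

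The sum over the 5 copies was 847, 935, 985 and 1183 CPM in HFD replicates 1 to 4. It was 3737, 3234, 4637 and 2253 CPM in CF replicates 1 to 4. The CF libraries spread over 2.06-fold and the HFD libraries over 1.40-fold, and the lowest CF library was 1.90 times the highest HFD library. The means were 988 ± 142 CPM (SD, n = 4) and 3465 ± 995 CPM (SD, n = 4), with a log2 fold change of -1.81 ± 0.24 (SE), or 3.51 times more in CF. As a share of all counts, which does not depend on the scaling, U3 took 0.106% ± 0.016 (SD, n = 4) in HFD and 0.317% ± 0.069 (SD, n = 4) in CF. In RNA from a sorted population, fewer cells of a type and less RNA per cell cannot be told apart. Counting Rnu3a and the mean of the Rnu3b copies instead, a choice made after seeing the data, gave -1.78 ± 0.22 (SE).

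For the background, the edgeR quasi-likelihood test called 67 of 15837 genes lower in HFD at an adjusted p below 0.05 (0.423%), with 845 lower at an unadjusted p below 0.05 and 503 called lower by DESeq2. It called 0 genes (0%) higher, with 510 higher at an unadjusted p below 0.05, whereas DESeq2 called 64 higher. Every HFD library was below every CF library in 567 genes (3.58%). The 5 U3 copies passed the filter on low counts and were among both the 67 and the 567, which follows from how the family was chosen. The call needed most of the libraries. With HFD replicate 2, 3 or 4 or CF replicate 1, 2 or 3 left out, 0 copies were called, and the genes called lower fell from 67 to at most 1. Without HFD replicate 1 or CF replicate 4 the genes called lower numbered 166 and 154. The size of the difference was kept: the log2 fold change of the U3 sum lay between -1.97 and -1.64 when each library was left out in turn.

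Within the family, the share of Rnu3a varied between libraries, without separating the diets. Rnu3a made up 22.9% of the U3 sum in HFD replicate 2 and 19.8% to 20.3% in the other HFD libraries. In CF replicates 1 to 4 it made up 21.9%, 19.8%, 16.9% and 20.5%. The mean share was 20.7% ± 1.46 (SD, n = 4) in HFD and 19.8% ± 2.12 (SD, n = 4) in CF. Per kilobase of exon, Rnu3a counts were 0.82 to 1.20 times those of the mean Rnu3b copy. Within a library the highest Rnu3b copy exceeded the lowest by 1.05 to 1.14 times. Rnu3b1 was the highest of the 4 in 7 of 8 libraries, Rnu3b4 in 1, and Rnu3b3 was the lowest in all 8. Rnu3b4 exceeded Rnu3b2 in 8 of 8 libraries by 1.00 to 1.02 times, and Rnu3b2 exceeded Rnu3b3 in 8 of 8 by 1.04 to 1.05 times. Rnu3b1 stood at 1.00 to 1.08 times Rnu3b4. The order was thus nearly the same within each library, at differences far smaller than those between libraries of a diet.

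**Figure D2:**
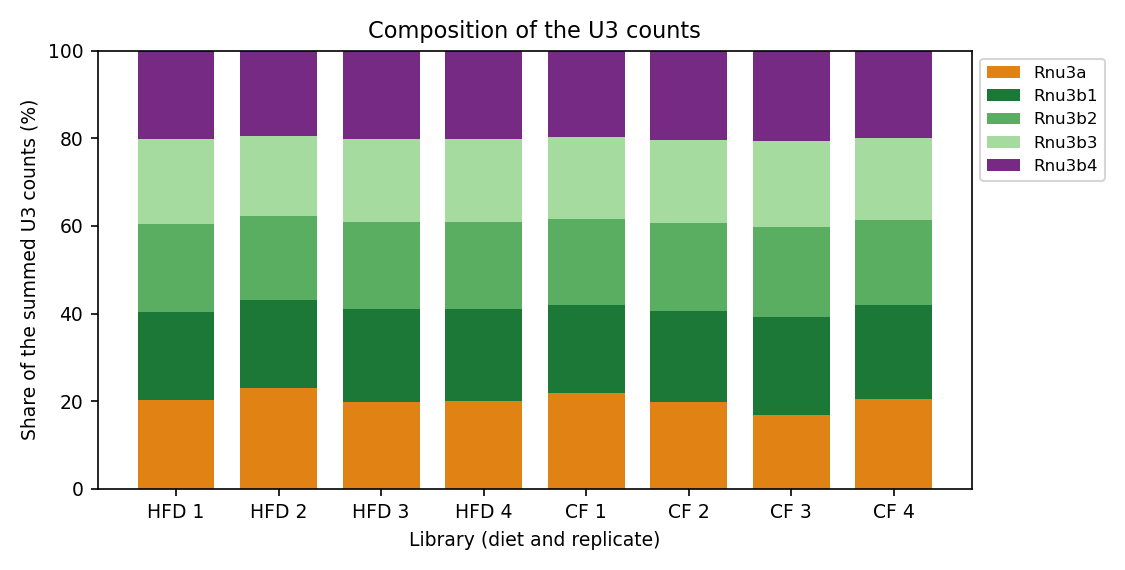
Share of each copy in the summed U3 counts (percent, vertical axis) in each of the 8 libraries (horizontal axis, diet and replicate). Rnu3a takes between 16.9% and 22.9% of the sum, with no separation of the diets.

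Other annotated loci resemble U3 and show how much of the signal lay outside the named copies. A search for transcripts of up to 500 nt with at least 80% identity over at least 50% of a copy found 9 identifiers, of which 7 are in the table. Together they held 0.70% to 3.09% of the U3 sum. Adding them to the sum left its log2 fold change at -1.81. Gm24826, the only one of these with at least 83 counts in every library, is at chr1:39519533-39519748 on the plus strand, and is printed with capitals where it differs from Rnu3b1 or has no partner there.
Gm24826: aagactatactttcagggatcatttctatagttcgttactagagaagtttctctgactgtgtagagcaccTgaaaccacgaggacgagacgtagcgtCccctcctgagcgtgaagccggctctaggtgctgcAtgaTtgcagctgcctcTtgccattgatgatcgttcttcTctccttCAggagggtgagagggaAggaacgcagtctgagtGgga
None of its 142 stretches of 75 bases occurs in Rnu3b1, and the longest identical run of both is 70 bases. Gm24826 had 83, 84, 104 and 131 counts in HFD replicates 1 to 4 and 522, 376, 553 and 329 in CF replicates 1 to 4. The groups did not overlap, with a log2 fold change of -2.19 ± 0.22 (SE). Gm24949, which is 95.8% identical to Rnu3b1, had 40 to 102 counts in HFD and 188 to 361 in CF. Gm23927 (ENSMUSG00000064400), 96.3% identical to Rnu3b1, behaved differently, with 353, 4, 477 and 786 counts in HFD replicates 1 to 4 and 3305, 21, 2234 and 17 in CF replicates 1 to 4. The second identifier of that locus (ENSMUSG00000104921) was below the filter on low counts. It had 13, 1, 143 and 65 counts in HFD replicates 1 to 4 and 1, 1, 1 and 3 in CF replicates 1 to 4, so 3 of the 4 HFD libraries lay above all CF libraries.

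For the proteins of the U3 snoRNP no difference of the size of the RNA's was seen. Of the 5 genes tested, 0 passed the edgeR test in either direction, 0 had an unadjusted p below 0.05, and 0 were called by DESeq2 or limma voom. Nop56, a core protein of box C/D snoRNPs, ranged from 33.9 to 44.9 CPM in HFD and from 36.7 to 45.7 CPM in CF (log2 fold change -0.14 ± 0.12 SE, edgeR adjusted p = 0.85). Nop58, its partner in the core, ranged from 35.8 to 53.3 CPM in HFD and from 40.0 to 43.3 CPM in CF (0.09 ± 0.13 SE, edgeR adjusted p = 0.93). The methyltransferase Fbl ranged from 20.4 to 40.2 CPM in HFD and from 25.5 to 29.6 CPM in CF (0.09 ± 0.19 SE, edgeR adjusted p = 0.95). Snu13, which binds the kink-turn of box C/D RNAs, gave 0.11 ± 0.13 (SE, edgeR adjusted p = 0.91). Rrp9, the protein particular to the U3 snoRNP, gave 0.12 ± 0.16 (SE, edgeR adjusted p = 0.92). The median log2 fold change of the list was 0.09, beside 0.05 over all genes tested, and turned to -0.05 without HFD replicate 4.

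In the SSU processome list, 34 of 45 genes had a positive log2 fold change and 11 a negative one, where 59.7% of all genes tested had a positive one. The median was 0.06 and turned to -0.02 without HFD replicate 4, and there were 0 calls in either direction. By edgeR at an unadjusted p below 0.05, 2 genes were higher and 0 lower, and DESeq2 and limma voom called 0. Srfbp1 gave 0.50 ± 0.17 (SE, edgeR adjusted p = 0.33) and Ngdn 0.37 ± 0.14 (SE, edgeR adjusted p = 0.44). The 9 genes of snRNA-type transcription, which include the SNAPc subunits that act at promoters of this kind, had a median of -0.03. It was positive when libraries were scaled by their size alone (0.19), without HFD replicate 4 (0.02), without CF replicate 1 (0.09) and without replicate 1 of both diets (0.04). Snapc2 gave 0.29 ± 0.19 (SE, edgeR adjusted p = 0.78), and Zfp143, a transcription factor of such promoters, 0.30 ± 0.21 (SE, edgeR adjusted p = 0.81). The 16 maturation and assembly factors had a median of 0.08 (-0.01 without HFD replicate 4), with Ruvbl2, an ATPase of the assembly complex, at 0.26 ± 0.14 (SE, edgeR adjusted p = 0.74) and the assembly factor Znhit6 at -0.19 ± 0.14 (SE, edgeR adjusted p = 0.81). The 14 genes of the RNA exosome, which trims and degrades nuclear RNA, had a median of 0.13 (0.05 without HFD replicate 4). Its helicase Mtrex gave 0.18 ± 0.09 (SE, edgeR adjusted p = 0.66) and its nuclease Dis3 0.15 ± 0.12 (SE, edgeR adjusted p = 0.83). In these last 3 lists 0 genes passed in either direction, 0 had an unadjusted p below 0.05 and 0 were called by DESeq2 or limma voom.

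**Figure D3:**
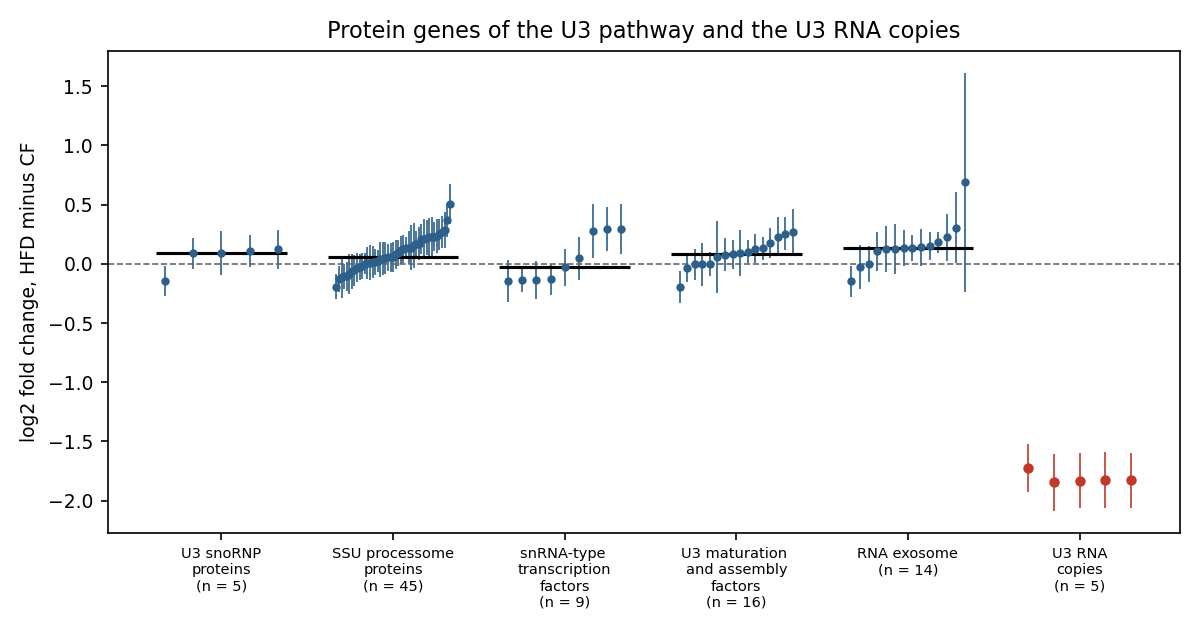
Log2 fold change, HFD minus CF (vertical axis), of each protein gene in 5 lists of the U3 pathway (blue) and of the 5 U3 RNA copies (red), with SE bars and a black line at each list's median. The list medians lie between -0.03 and 0.13, and the U3 copies between -1.84 and -1.72.

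Other small RNAs with promoters of their own were compared with U3. Snord118 (U8), a box C/D RNA needed for the large ribosomal subunit, had 150, 193, 191 and 288 CPM in HFD replicates 1 to 4. In CF replicates 1 to 4 it had 961, 682, 654 and 386 CPM. The groups did not overlap, and the log2 fold change was -1.71 ± 0.30 (SE, edgeR adjusted p = 0.057). The U3 sum was 4.94 ± 0.64 (SD, n = 4) times the Snord118 count in HFD and 5.39 ± 1.38 (SD, n = 4) times in CF, with overlapping libraries. Snord13 (U13), which guides a modification of 18S rRNA, gave -1.21 ± 0.30 (SE, edgeR adjusted p = 0.15). Rmrp, the RNA of RNase MRP, gave -0.76 ± 0.22 (SE, edgeR adjusted p = 0.24). The U3 sum per Rmrp count was 0.41 to 0.69 in HFD and 0.92 to 1.48 in CF, so the diets did not overlap in this ratio. Rpph1, the RNA of RNase P, gave -0.29 ± 0.22 (SE, edgeR adjusted p = 0.82). Rn7sk had 18 to 65 counts per library, and its log2 fold change was -0.14 ± 0.37 (SE, edgeR adjusted p = 0.97).

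The wider classes of short RNA had negative medians as well, while the number of their genes called depended on the tool. The median log2 fold change was -1.30 over 74 genes named Snord, -1.45 over 40 named Snora, -1.25 over 210 snRNA genes and -1.64 over 58 rRNA genes, beside 0.07 over 11775 protein-coding genes. The medians of these 4 classes moved with the libraries used. They were -0.86, -1.01, -0.97 and -1.28 without replicate 1 of both diets, a choice made after seeing the data. Without HFD replicate 4 they were -1.54, -1.65, -1.48 and -1.78. Every HFD library was below every CF library in 48.6% of the Snord, 82.5% of the Snora, 61.4% of the snRNA and 84.5% of the rRNA genes, beside 0.951% of the protein-coding genes and 3.58% of all genes. The edgeR test called 1 of the 74 Snord genes lower (Snord15a), 4 of the 40 Snora genes (Snora3, Snora64, Snora73b and Snora81), 14 of the 210 snRNA genes and 27 of the 58 rRNA genes, all at an adjusted p below 0.05. DESeq2 called 46, 36, 129 and 52 genes of these classes and limma voom 3, 3, 13 and 24. Whether genes of these classes share reads, as the Rnu3b copies can, was not examined, so the counts may not be of separate observations. The part of the kit's removal of rRNA-derived inserts in the rRNA values was not tested. By edgeR, 0 genes of the 4 classes were called without HFD replicate 2, 3 or 4 or CF replicate 1, 2 or 3. Without HFD replicate 1 the calls numbered 6, 11, 19 and 29, and without CF replicate 4 they numbered 8, 10, 39 and 39. By exon length, the median of other non-coding genes was -1.28 up to 100 nt and -1.30 over 100 and up to 200 nt. It was -0.66 over 200 and up to 300 nt, which is the length class of U3, and -0.17 over 300 and up to 500 nt. The class of U3 is mixed, with Rn7s2 and Rn7s1 of 300 nt at -0.66 and -0.51. Among its snoRNA genes, Snora73b and Snora73a of 205 nt were at -1.09 and -1.06, and Gm26448 of 203 nt at -0.80. Snord17 of 238 nt and Gm24119 of 246 nt were both at -1.30, and Gm23547 of 271 nt at -0.25. The U3 median of -1.83 lay below each of these values. Below it in turn lay 1 of the 74 Snord genes (Snord42b), 9 of the 40 Snora, 9 of the 210 snRNA, 7 of the 58 rRNA and 41 of the 461 genes over 100 and up to 200 nt. In the length class of U3, 3 of 31 genes lay below it, and these were the U3-like loci Gm23927, Gm24826 and Gm24949, which that class includes. The value of Gm23927 was -1.86 ± 1.58 (SE), with overlapping groups. The single genes in this paragraph were named after their values were seen.

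**Figure D4:**
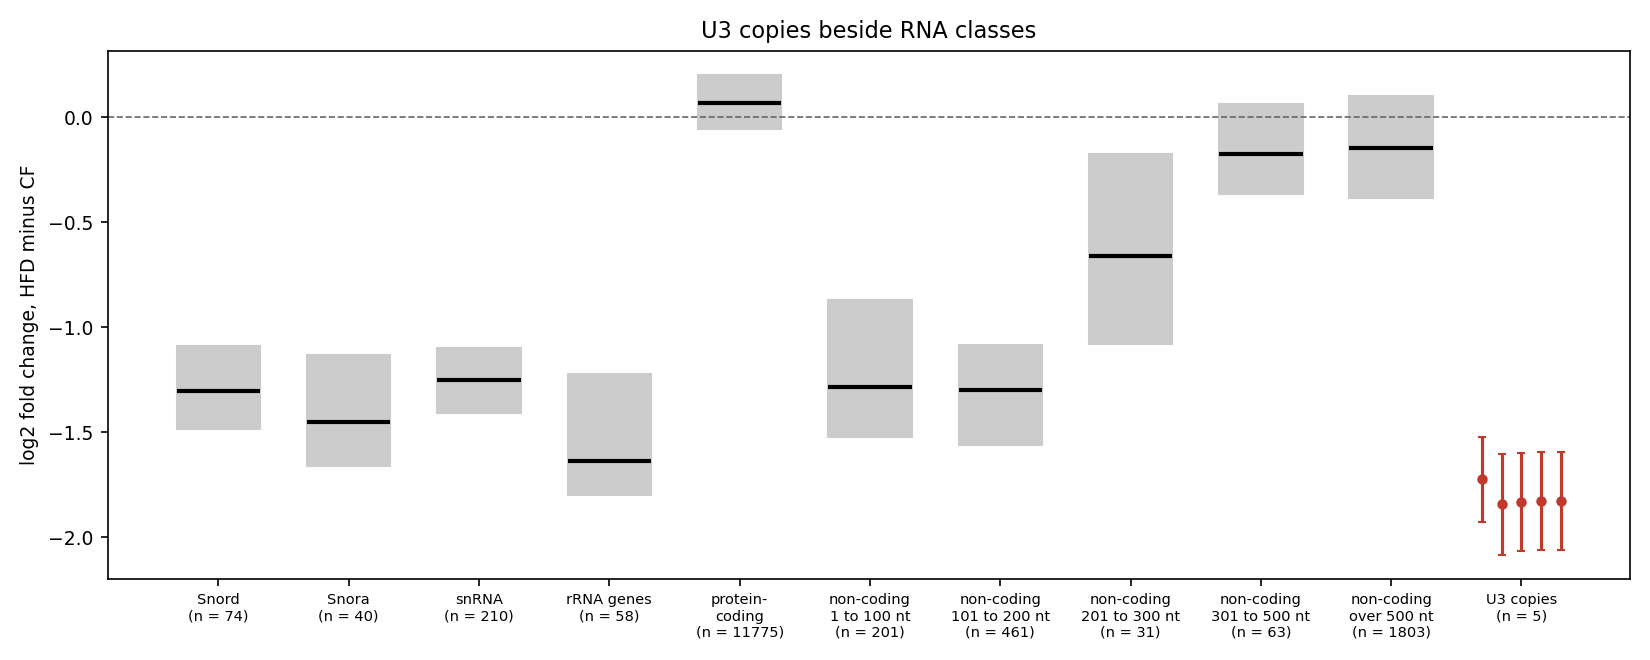
Log2 fold change, HFD minus CF (vertical axis), by RNA class. Grey boxes run from the lower to the upper quartile, black lines are medians, n is the number of genes tested, and red points are the 5 U3 copies with SE bars. The medians of Snord, Snora, snRNA and rRNA genes lie between -1.64 and -1.25 and that of protein-coding genes at 0.07.

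The share of these short RNAs was compared with U3 library by library. The 678 non-coding genes of up to 200 nt took 8.49%, 11.2%, 12.1% and 13.6% of the counts in HFD replicates 1 to 4 and 33.9%, 24.9%, 26.2% and 21.7% in CF replicates 1 to 4. Within HFD, the order of the libraries by this share was also their order by the U3 sum. Within CF, replicate 4 was the lowest in both, while replicate 1 was the highest in the share and replicate 3 in U3. Per 100 counts of these short genes, the U3 sum came to 1.00, 0.94, 0.91 and 0.92 in HFD replicates 1 to 4. In CF replicates 1 to 4 it came to 0.88, 1.14, 1.60 and 1.23. In this ratio the diets overlapped, since CF replicate 1 lay below all HFD libraries. The part that the short RNA share has in the U3 difference was not tested.

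The genes whose profile over the 8 libraries was most like that of the U3 sum were short as well. Likeness was the root mean square difference of log2 CPM centred on each gene's mean. It was 0.19 for Gm47285, a miRNA gene of 61 nt, and 0.20 and 0.22 for the snRNA genes Gm24763 and Gm22958. It was 0.22 for both n-R5s62 and n-R5s2, which are annotated as rRNA genes. The U3 copies themselves lay between 0.03 and 0.12, and the median gene outside the family at 1.00.

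Markers of the sorted cells were present: Flt3, which is part of the gate, had 88.8 to 378 CPM, Csf1r (CD115) 79.4 to 133 and Kit 34.2 to 53.6, while Ly6a (Sca-1) had 1.37 to 3.25. The summed level of the 6 gate and progenitor genes was 505 CPM in HFD replicate 1, the library with the lowest U3 sum, and 840 to 1200.2 CPM in the other 7. Markers of other cells were present too. The mean log2 CPM of 10 neutrophil genes was 10.3, 7.61, 6.16 and 5.77 in HFD replicates 1 to 4, the reverse of the U3 order. It was 6.82, 8.46, 8.43 and 8.40 in CF replicates 1 to 4, which is not the reverse of the U3 order in CF. The direction of the neutrophil list rested on HFD replicate 1: in the edgeR fit all 10 genes had a positive log2 fold change (median 0.41), and without that library all 10 had a negative one (median -1.40). With limma voom on all libraries all 10 were negative too. The erythroid list had 7 of 7 positive values (median 0.82) and 4 of 7 without HFD replicate 1 (median 0.03). The B cell list had 6 of 6 positive values with and without it (medians 0.90 and 0.67). In these 3 lists 0 genes passed the edgeR or the limma voom test, while DESeq2 called 1, the B cell gene Cd79a. No neutrophil or erythroid gene had an unadjusted p below 0.05 by edgeR. Of the B cell genes 5 had an unadjusted p below 0.05, and their summed level lay between 444 and 1244 CPM in HFD and between 278 and 498 CPM in CF. The summed erythroid level was 390 CPM in HFD replicate 1, 79.9 to 122 CPM in the other HFD libraries and 74.7 to 117 CPM in CF. Of the 6 T and NK cell genes, Cd3e and Cd3g fell below the filter on low counts. The other 4 were detected, with Nkg7 at 7.55 to 24.6 CPM and Cd3d, Cd8a and Cd4 at 0 to 2.52 CPM. Cd4 had a log2 fold change of 1.87 ± 0.67 (SE, edgeR unadjusted p = 0.022, adjusted p = 0.41), and 0 of the 4 passed the test by edgeR, DESeq2 or limma voom. Without replicate 1 of both diets, an alternative chosen after seeing the data, the log2 fold change of the U3 sum was -1.71 ± 0.28 (SE). Among the libraries this choice keeps, no neutrophil mean of HFD exceeded 7.61, while none of CF fell below 8.40. It thus set the diets apart in these markers, so the kept U3 difference cannot tell what other cell types contribute. The part of other cell types in the U3 difference was not tested.

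**Figure D5:**
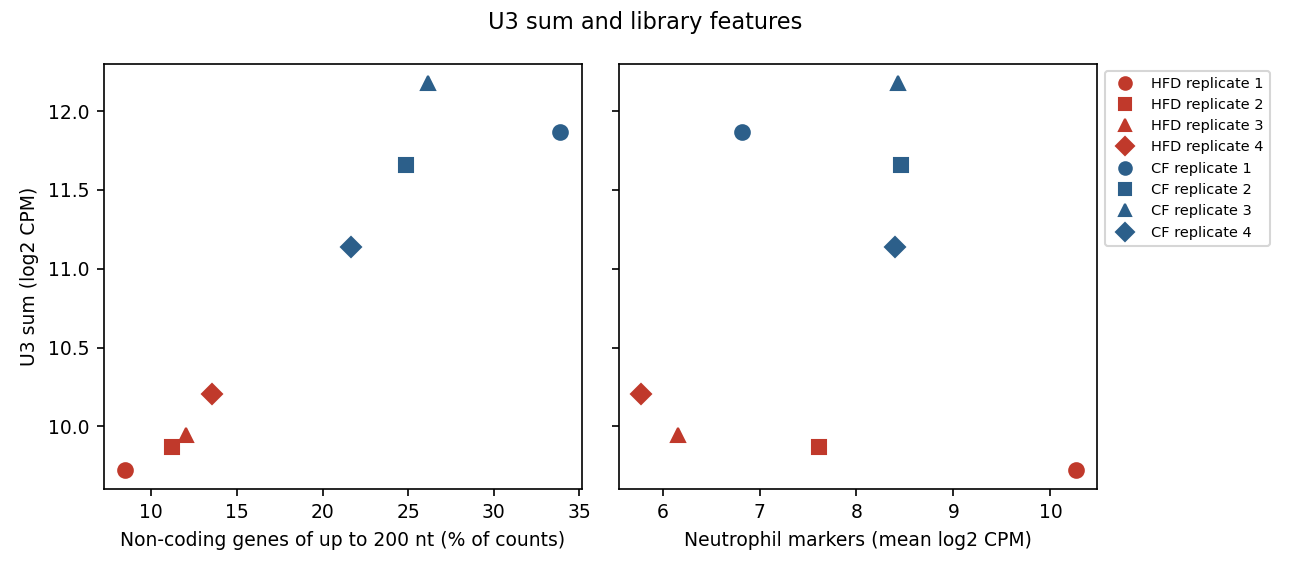
U3 sum (log2 CPM, vertical axis) against the share of counts in non-coding genes of up to 200 nt (left, percent) and against the mean log2 CPM of 10 neutrophil markers (right), for the 8 libraries. The diets separate in U3 and in the short RNA share (8.49% to 13.6% in HFD, 21.7% to 33.9% in CF) and overlap in the neutrophil markers.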

How the data were processed

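The authors deposited raw counts per gene for 8 libraries of sorted CDPs. According to the study's methods and the submitters' processing notes, reads were trimmed with cutadapt, checked with FastQC, aligned to GRCm38 with HISAT2, filtered for uniquely mapped pairs and counted with StringTie. The deposited counts summed to between 28203651 and 48409689 per library, and no gene had a highest count under 29. Identifiers were matched to GENCODE vM21 (16067 of 16119). The counts were analysed with edgeR 4.0.16 in R 4.3.3: filterByExpr by diet, TMM, and a robust quasi-likelihood fit on diet alone, with Benjamini-Hochberg adjustment over 15837 genes and a threshold of 0.05. The U3 sum replaced its 5 rows before the same fit. Log2 CPM used a prior count of 2.

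Sequences were compared with Biopython 1.88 and blastn 2.17.0 at an e-value of 1e-5. Figures used matplotlib 3.10.9. The members and all gene lists were chosen with earlier results of these data known. Genes named outside the family were the snoRNP proteins, the 2 lowest p values of each other pathway list, other independently transcribed small RNAs, the host gene, and the 5 most similar profiles. The U3-like loci were named after their values were seen. Alternatives were other size factors, DESeq2 1.42.0, limma 3.58.1 (voom), other filters, leaving out single libraries, and a block for the replicate number. FPKM, transcript values and the other assays of the study were not analysed here.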

Additional observations from a re-analysis of the deposited data

Results flagged for a closer look

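In 3 of 76 groups of 4 libraries examined, 1 library stood apart from the rest of its diet by Dixon's criterion, where chance gives about 1 in 20. Rnu3a made up 22.9% of the U3 sum in HFD replicate 2, against 19.8% to 20.3% in the other HFD libraries. The U3-like locus Gm23927 (ENSMUSG00000064400) had a log2 CPM of -2.45 in HFD replicate 2, against 3.51 to 4.26 in the other HFD libraries. It was also low in CF replicates 2 and 4, with 21 and 17 counts against 3305 and 2234 in CF replicates 1 and 3. The mean log2 CPM of the neutrophil markers was 6.82 in CF replicate 1, against 8.40 to 8.46 in the other CF libraries.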

How the results depend on the processing

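Over 20 alternatives the log2 fold change of the U3 sum lay between -1.97 and -1.58. It moved in each by less than the spread between libraries (pooled SD 0.34, log2). For the alternatives that leave out 1 of 4 libraries this could hardly have come out otherwise, so it is no test of the difference. The counts of calls moved more. Genes called lower numbered 67, 503 with DESeq2, 0 with the replicate number as a block, 350 without replicate 1 of both diets, and 0 to 166 when each library was left out in turn. Genes called higher numbered 0, 10 with library size alone, 64 with DESeq2, 38 without replicate 1 of both diets, and 0 to 34 with each library left out. The U3 copies called numbered 5, 0 with the replicate block, and 0 to 5 with each library left out. The cause was not tested. Libraries with the same number had residual correlations of -0.44 to -0.08, and 0 of 8 correlated best with their own number, so the numbers were not taken to pair the libraries. Library size alone moved the median of all genes from 0.05 to 0.25 (log2), and the medians of the snoRNP, SSU processome, maturation and exosome lists to 0.30, 0.26, 0.28 and 0.34. Snord118 was called with DESeq2, limma voom, library size alone, without HFD replicate 1, without CF replicate 4 and without replicate 1 of both diets, with an adjusted p of 1.59e-06 to 0.55 over all its alternatives. Snord13 was called with DESeq2 and without CF replicate 4, and Rmrp with DESeq2. No direction of a called value reversed. With 4 libraries per diet, the spread between libraries and the identical Rnu3b copies limit what can be told apart.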
